A study of Homo sapiens with 4 samples.

Results

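Mitochondrial ribosomal protein genes were compared between 2 positions in spheroids of MV3 melanoma cells, the core and the zone of invasion around it. The group was chosen by symbol alone, as every gene row named MRPL or MRPS with a number and, for paralogues, a letter A to C. This gave 78 genes of the 56304 gene rows of the count table, 49 named for the large subunit (MRPL) and 29 named for the small subunit (MRPS), and all 78 were among the 15529 genes that passed the filter on low counts.

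MV3 is an established human melanoma line, here of the H2B-GFP genotype, in which a fluorescent histone marks the nuclei. Spheroids of 50000 cells were kept in rat-tail collagen I without irradiation. On day 2 the core was punched out, and the surrounding invasion zone was then taken with a wider punch. Both groups thus share line, genotype, matrix, time and treatment. They differ in position and also in handling, since the core was put on dry ice at once, while the invasion zone was first checked for remaining core. Each zone gave 2 libraries, numbered replicate 1 and replicate 2, made from low-input total RNA. A vertical punch can keep invading cells above and below the core in the core sample, bulk RNA mixes all cells of a zone, and fewer cells of a type cannot be told apart from less RNA per cell.

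Mitochondrial ribosomes translate the few mRNAs encoded by mitochondrial DNA, all of them for subunits of the respiratory chain and ATP synthase. Their RNA comes from the mitochondrial genome, but every one of their proteins is encoded in the nucleus, made in the cytosol and imported. Some of these proteins descend from the bacterial ribosome and others are particular to mitochondria. The small subunit binds the mRNA and reads the codons, and the large subunit joins the amino acids and lets the new chain out through a tunnel at the inner membrane. Promoters of nuclear genes for mitochondrial proteins are known for sites of NRF1, of the ETS factor GABPA and of YY1.

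Those letters were searched in the promoters of the genes, since the values below concern genes encoded at many places in the genome that were mostly higher in the same zone. RefSeq promoter windows on GRCh38.p14, from 250 bases before to 50 bases after a start, were matched by symbol for 69 of the 78 genes. MRPL2, MRPL10, MRPL13, MRPL15, MRPL21, MRPL23, MRPL35, MRPS28 and MRPS36 had no window. Shown here are 80 bases up to a RefSeq start. They come from the gene with the largest zone difference among those with each motif before the start, and from MRPS6. MRPS6, the gene lower in the invasion zone with the replicate block, has none of the 3. Gene positions given below are from GENCODE, with an earlier start for MRPL4 (10251901) and MRPS6 (34073224), so their stretches lie inside those gene spans. The stretch of MRPL52 runs past its GENCODE start (22829879). Capitals mark the motif, read 5′ to 3′ on the strand of the gene:
MRPL4, chr19:10252134-10252213, plus strand, NRF1 core: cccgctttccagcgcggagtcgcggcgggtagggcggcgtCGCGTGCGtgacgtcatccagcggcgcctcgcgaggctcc
MRPS10, chr6:42217862-42217941, minus strand, GABPA: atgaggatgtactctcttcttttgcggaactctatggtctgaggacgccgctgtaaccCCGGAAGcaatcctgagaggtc
MRPL52, chr14:22829807-22829886, plus strand, YY1: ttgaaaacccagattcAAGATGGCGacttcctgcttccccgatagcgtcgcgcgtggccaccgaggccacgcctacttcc
MRPS6, chr21:34073498-34073577, plus strand, no motif: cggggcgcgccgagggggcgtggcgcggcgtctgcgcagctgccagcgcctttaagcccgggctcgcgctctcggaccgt

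The GABPA letters CCGGAAG, searched on both strands, were in the windows of 30 of 69 genes (43.5%), compared with 21.9% of the 10050 tested genes that have a window and 12.2% of all 27305 genes that have one. The YY1 letters AAGATGGCG were in the windows of 13 genes (18.8%), compared with 4.74% of tested genes and 2.14% of all genes. For the NRF1 core CGCANGCG, the share of 21.7% (15 genes) was close to the 21.9% of tested genes, and 12% of all genes held it. The NRF1 core was in 28.6% of 42 MRPL windows and 11.1% of 27 MRPS windows. The search took no account of overlaps between motifs, and a match describes the letters only.

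The table holds raw counts. In replicate 1 the core held 36363358 counts and the invasion zone 37591782, and in replicate 2 they held 14983135 and 11789243, so that replicate 2 was the shallower one in both zones. Levels are given as normalised CPM, which are counts brought to the same library size, with TMM factors that lay between 0.9855 and 1.009. Of 9 melanocytic markers 3 passed the filter, with MITF between 1.71 and 3.37 CPM and SOX10 and TYR at 0 counts in all 4 libraries, so that defining markers of the labelled cell type were low or absent. Of 12 markers of leukocytes, endothelium, epithelium and fibroblasts 9 did not pass, with a summed level between 0 and 0.721 CPM per library. The 3 that passed were KRT18 (118 to 158 CPM), PECAM1 (18.1 and 7.43 CPM in the core, 5.23 and 0.926 in the invasion zone) and PDGFRA (95.2 and 58.2 against 38.2 and 13.6 CPM), with the defining markers CDH5, LUM and DCN at 0.199 CPM or less. All 12 markers summed to 245 and 224 CPM in the core, compared with 178 and 133 CPM in the invasion zone, and their part in the differences described here was not tested.

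The question was whether the genes of this one complex differ in RNA level between cells that stay in the spheroid and cells that invade. The 78 genes together were higher in both invasion zone libraries than in both core libraries. Their summed level was 4122 and 4438 CPM in core replicates 1 and 2, and 5218 and 5832 CPM in invasion zone replicates 1 and 2. The means were 4280 ± 223 (SD, n = 2) in the core and 5525 ± 434 (SD, n = 2) in the invasion zone. Within a replicate number the sum was 1.27-fold higher in the invasion zone in replicate 1 and 1.31-fold higher in replicate 2. In raw counts these genes took 0.406% (replicate 1) and 0.447% (replicate 2) of the core and 0.520% and 0.588% of the invasion zone.

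The difference was small per gene and shared by most of them. The median log2 fold change, invasion zone over core, was 0.34 (1.27-fold) over the 78 genes, with quartiles at 0.19 and 0.45 and a range from -0.51 to 0.94. Over all 15529 genes tested the median was -0.01 and the quartiles were -0.41 and 0.34. Of the 78 genes 69 had a positive log2 fold change and 9 a negative one, while 50.7% of all genes were negative. A change above 1.2-fold upwards was found for 50 of the 78 genes, and a change past 2-fold in either direction for 0, beside 4620 and 2097 of all 15529 genes tested.

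**Figure D1:**
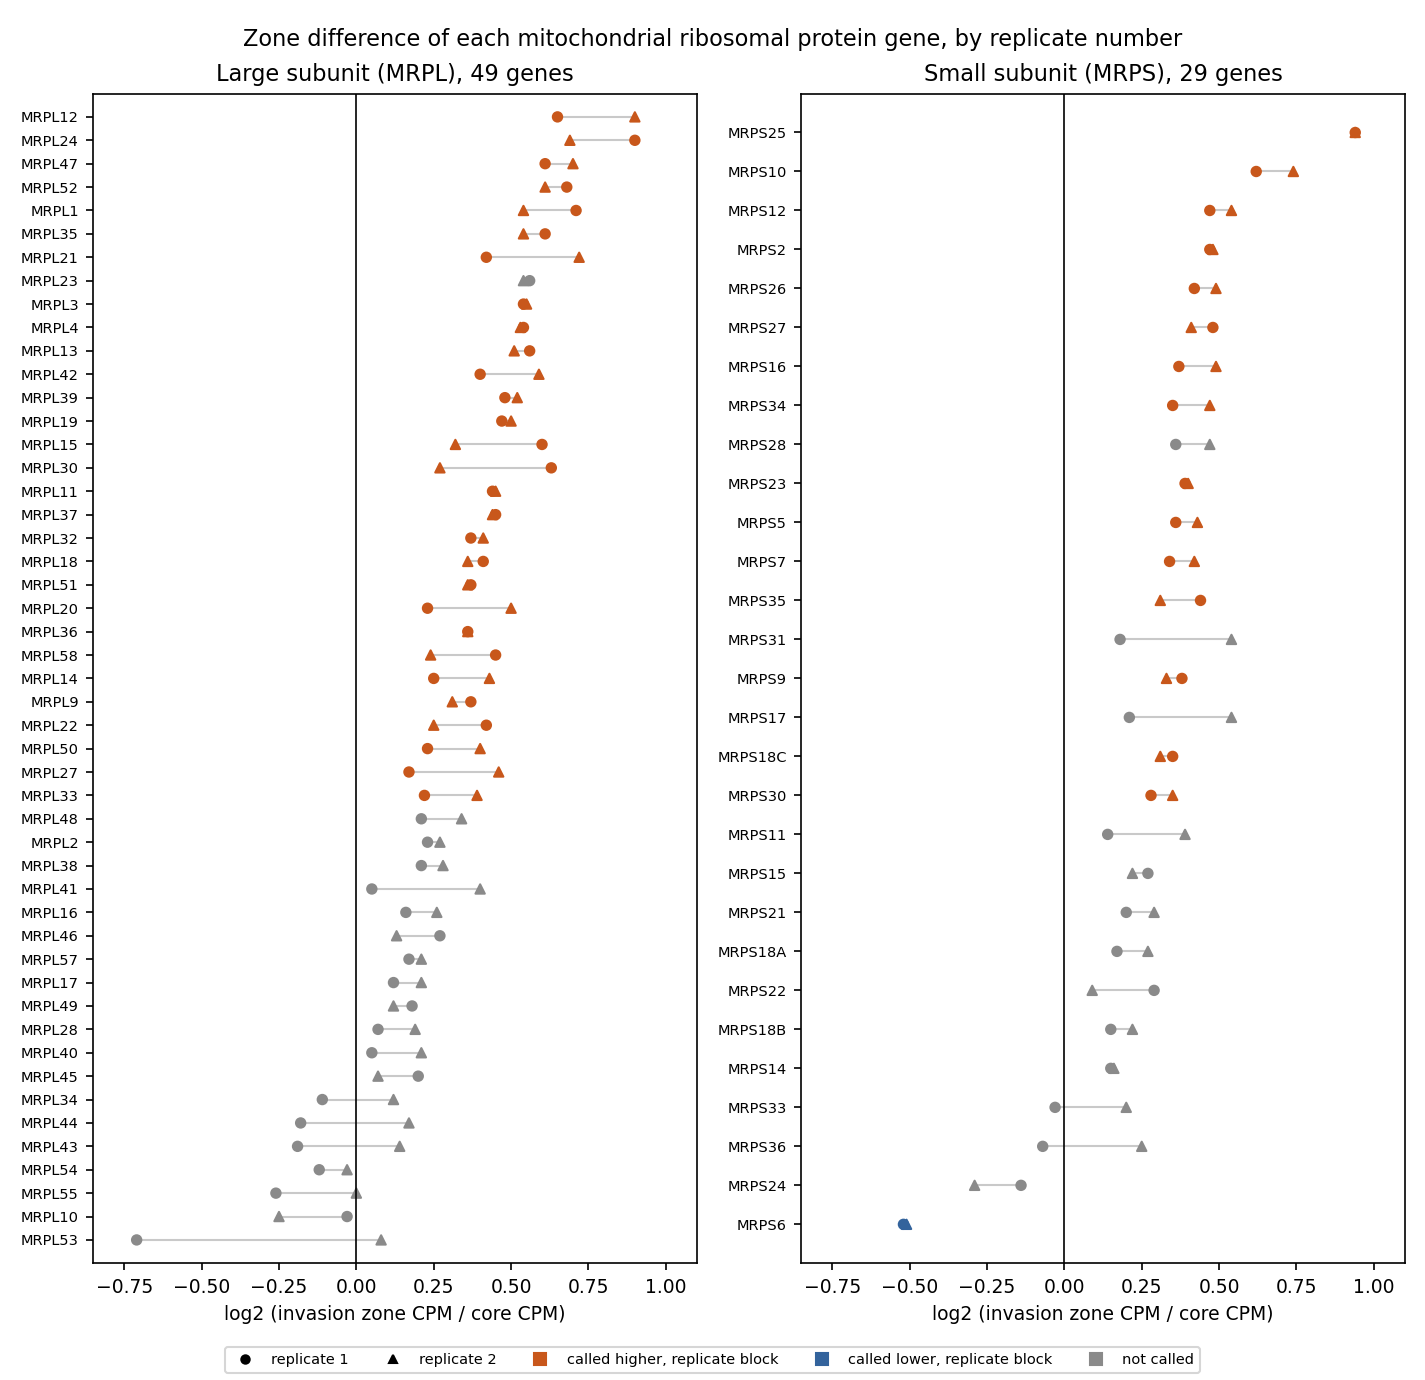
Log2 ratio of normalised CPM, invasion zone over core, for each of the 49 MRPL and 29 MRPS genes, ordered by the fitted fold change, with circles for replicate 1, triangles for replicate 2 and colour for the call with a replicate block. In replicate 1, 67 genes lie right of zero, in replicate 2, 73 genes do, and MRPS6 is the gene called lower.

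Both replicate numbers showed the difference. The median log2 ratio of CPM within replicate 1 was 0.35 and within replicate 2 it was 0.36, and over all genes tested these medians were 0.00 and -0.02. The invasion zone value was above the core value in 67 genes in replicate 1 and in 73 genes in replicate 2. It was higher within both replicate numbers for 67 of 78 genes (39.8% of all genes tested), lower within both for 5 (40.9% of all genes), and of opposite sign for 6. Without regard to the number, the zones were fully separated with the invasion zone on top for 60 genes (28.1% of all genes) and with the core on top for 3 (30.3% of all genes). Those 3 were MRPS6, MRPL10 and MRPL55, the last by less than the printed precision, with 44.1 CPM in replicate 2 of both zones. Across the 78 genes the log2 ratios of the 2 replicate numbers correlated with r = 0.78 and rho = 0.76, and with r = 0.76 among genes with a mean of at least 10 CPM when MRPS6 was left out. This describes the genes, which share libraries and are not independent replicates.

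**Figure D2:**
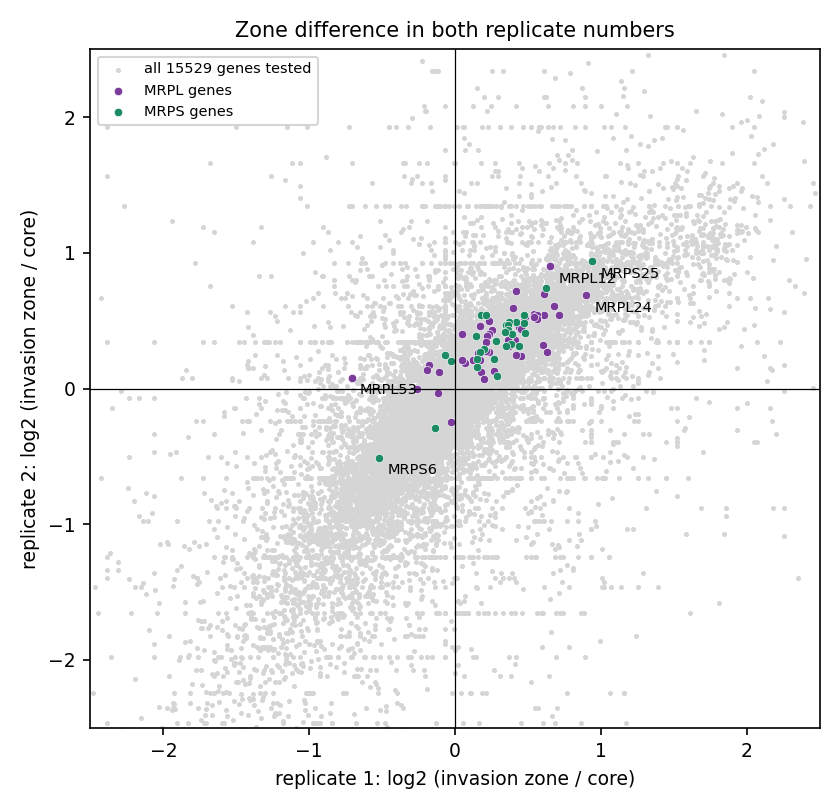
Log2 ratio of normalised CPM, invasion zone over core, in replicate 1 (x axis) and replicate 2 (y axis), with grey dots for all genes tested within the plotted range, purple for MRPL genes and green for MRPS genes. Most of the 78 genes sit in the upper right quadrant (67 of 78), near the middle of the cloud rather than at its ends.

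The test without a replicate term called 0 of the 78 genes in either direction, as it called 0 of 15529 genes higher (0.0%) and 0 lower (0.0%) at an adjusted p under 0.05 (edgeR's quasi-likelihood test with Benjamini-Hochberg adjustment). The adjusted p of the 78 genes lay between 0.128 and 0.993, and 0.128 was also the smallest of all genes. At an unadjusted p under 0.05, 25 of the 78 genes were higher (11.9% of all genes tested) and 0 were lower (12.4% of all genes). DESeq2 called 7 of the 78 genes higher and 0 lower, beside 811 genes higher and 876 lower in all, and limma voom called 0. Nothing in the sources says that libraries of a zone came from separate cultures, so these p-values measure the spread between these samples only.

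When the edgeR fit was given the replicate number as a block, 44 of the 78 genes were called higher (19.4% of all genes tested) and 1 was called lower (19.4% of all genes). In all, 3010 genes were called higher and 3009 lower with the block, and with library trends on GC content and transcript length taken out this split was 3821 to 2508. Of the 78 genes 44 were again called higher and 1 lower with these offsets, but 39 of the 44 were shared, since 5 genes lost the call (MRPL32, MRPL33, MRPL50, MRPS9 and MRPS18C) and 5 gained it (MRPL2, MRPL23, MRPL28, MRPL41 and MRPS15). The genes of this complex are well expressed, with a median of 56.6 CPM against 21.7 CPM over all genes tested. Among genes with a mean of at least 10 CPM, the block called 44 of the 72 member genes higher and 28.1% of all 9550 genes. The median standard error of a log2 fold change over the 78 genes was 0.16 without the block and 0.10 with it. What a replicate number stands for is not explained beyond the dissection of a core and its matching zone, so the blocked calls hold only if the numbers pair the libraries.

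The differences of both subunits were of similar size. The 49 MRPL genes summed to 2617 and 2825 CPM in the core, compared with 3329 and 3716 CPM in the invasion zone. The 29 MRPS genes summed to 1505 and 1612 CPM in the core, compared with 1890 and 2116 CPM in the invasion zone. The invasion zone sum was thus 1.27-fold and 1.32-fold higher for MRPL and 1.26-fold and 1.31-fold higher for MRPS, in replicates 1 and 2. Large over small, the ratio of the sums was 1.74 and 1.75 for the core and 1.76 and 1.76 for the invasion zone. The median log2 fold change was 0.34 for MRPL and 0.35 for MRPS, and this difference of -0.016 between the medians was given no test because genes of 1 library are not replicates. With the block, 29 of 49 MRPL genes were called higher and 0 lower, and 15 of 29 MRPS genes were called higher and 1 lower, beside 19.4% of all genes tested in each direction.

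**Figure D3:**
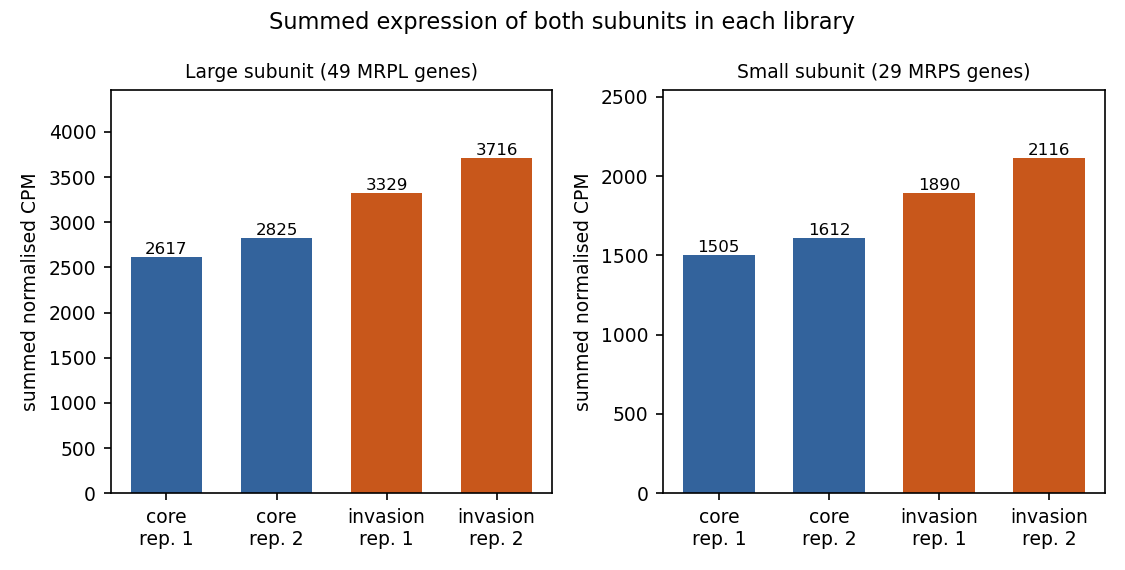
Summed normalised CPM of the 49 MRPL genes (left) and the 29 MRPS genes (right) in each of the 4 libraries, core in blue and invasion zone in orange, with the sum above each bar. Both invasion zone bars stand above both core bars in each panel, at 3329 and 3716 CPM against 2617 and 2825 for MRPL and 1890 and 2116 CPM against 1505 and 1612 for MRPS.

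Symbols do not always follow the structure. MRPS30 and MRPS18A are proteins of the large subunit in spite of their names, and MRPS36 is known as part of the oxoglutarate dehydrogenase complex. With the first 2 moved and MRPS36 left out, 51 large subunit genes had a median log2 fold change of 0.33 and 26 small subunit genes one of 0.36. The ratio of the sums was then 1.89 and 1.90 in the core and 1.90 and 1.89 in the invasion zone, so the 4 libraries differed as little as before.

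By origin of the protein, the 30 large subunit genes with a bacterial homologue had a median log2 fold change of 0.39, and 22 of them were called higher with the block, a share to be read against the 19.4% of all genes tested and the 28.1% of those with at least 10 CPM. The 21 large subunit genes particular to mitochondria had a median of 0.23, with 8 called higher, a share nearer to the 28.1%. In the small subunit, the 16 genes with a bacterial homologue had a median of 0.34 (8 called higher, 1 lower) and the 10 particular to mitochondria a median of 0.38 (6 called higher). The order of both kinds was therefore not the same in the large as in the small subunit, and neither difference was tested. MRPS18A and MRPS18B were counted here as particular to mitochondria, in the large and the small subunit, although both descend from bacterial S18.

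The gene with the largest difference of all 78 was MRPS25, a small subunit protein particular to mitochondria (chr3:15009611-15065339, minus strand). Its level was 16.2 and 27.1 CPM in core replicates 1 and 2 and 31.1 and 52.2 CPM in invasion zone replicates 1 and 2. Both invasion zone libraries were above both core libraries, and replicate 2 was the higher one in each zone. Its log2 fold change was 0.94 ± 0.35 (SE) without the block (adjusted p = 0.191, edgeR) and 0.94 ± 0.11 with it (adjusted p = 0.000286). Without the block it was 0.62 when core replicate 1 was left out and 0.53 when invasion zone replicate 2 was. Of its exonic bases 39.1% lie opposite exons of NR2C2, and whether the counting used strand is not stated in the sources used here.

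In the small subunit MRPS10, a homologue of bacterial S10 in the head of the subunit, followed (chr6:42206807-42217861, minus strand). Its core libraries had 42.9 and 44 CPM and its invasion zone libraries 66.2 and 73.4 CPM. The zones were clearly apart, as the core libraries differed by little from each other. Its log2 fold change was 0.68 ± 0.14 without the block (adjusted p = 0.128, edgeR) and 0.68 ± 0.09 with it (adjusted p = 0.000734). It holds the GABPA letters shown above. MRPS12, the homologue of S12 at the decoding centre, had 79.8 and 93.7 CPM in the core, compared with 111 and 137 CPM in the invasion zone. Its groups did not overlap, and its log2 fold change was 0.51 ± 0.08 with the block (adjusted p = 0.0015, edgeR).

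MRPS34, particular to mitochondria, was the highest of the 78 genes per transcript length, at a mean of 173 CPM per kilobase. It had 127 and 169 CPM in the core, compared with 162 and 233 CPM in the invasion zone. These groups overlapped, since core replicate 2 was above invasion zone replicate 1, although the invasion zone was higher within each replicate number. Accordingly its log2 fold change was 0.42 ± 0.24 without the block (adjusted p = 0.34, edgeR) and 0.41 ± 0.08 with it (adjusted p = 0.00331). It was 0.70 with GC and length offsets added to the block, and 0.13 to 0.66 without the block when 1 library was left out, lowest without invasion zone replicate 2 and highest without invasion zone replicate 1. Of its exonic bases 31.2% lie opposite EME2.

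MRPS6, the homologue of bacterial S6, went the other way (chr21:34073224-34143034, plus strand). Its level was 57.4 and 41.9 CPM in the core, compared with 40.0 and 29.4 CPM in the invasion zone. Both invasion zone libraries were below both core libraries, but core replicate 2 and invasion zone replicate 1 were close. The log2 ratio within replicate numbers was -0.52 and -0.51. The log2 fold change was -0.51 ± 0.24 without the block (adjusted p = 0.251, edgeR) and -0.52 ± 0.10 with it (adjusted p = 0.00362). Without the block it was -0.26 when core replicate 1 was left out and -0.31 when invasion zone replicate 2 was. SLC5A3 and an unnamed gene share 9.5% of its exonic bases on the same strand, and the promoter window shown above has none of the 3 motifs.

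The MRPS18 paralogues are 3 proteins from 1 bacterial ancestor, S18, that sit at different places in the mitoribosome. MRPS18C, in the small subunit, had 27.0 and 27.5 CPM in the core, compared with 34.5 and 34.1 CPM in the invasion zone, and its log2 fold change with the block was 0.33 ± 0.11 (adjusted p = 0.0368, edgeR). MRPS18B, also of the small subunit, had 72.5 and 70.8 against 80.2 and 82.5 CPM and a log2 fold change of 0.18 ± 0.09 (adjusted p = 0.138). MRPS18A, in the large subunit, had 13.8 and 13.1 against 15.5 and 15.7 CPM and a log2 fold change of 0.21 ± 0.15 (adjusted p = 0.291). In all 3 both invasion zone libraries were above both core libraries, as they were for 28.1% of all genes tested. With the block MRPS18C alone was called higher. The block called 19.4% of all genes tested higher, and 28.1% of those with a mean of at least 10 CPM. The call of MRPS18C was lost with GC and length offsets added to the block (0.22) or with no count filter. The difference between paralogues was not tested.

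At the low end of the small subunit, MRPS24, a homologue of S3, had 6.99 and 2.06 CPM in the core, compared with 6.32 and 1.68 CPM in the invasion zone. Its replicates differed far more than its zones, and its log2 fold change was -0.15 ± 0.78 without the block (adjusted p = 0.93, edgeR). It shares 23.2% of its exonic bases with the readthrough gene URGCP-MRPS24. MRPS17, a homologue of S17, had 8.38 and 5.04 CPM in the core, compared with 9.69 and 7.32 CPM in the invasion zone and a log2 fold change of 0.34 ± 0.20 with the block (adjusted p = 0.214, edgeR). Its groups overlapped, and 25.0% of its exonic bases are shared with NIPSNAP2 and an unnamed gene.

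In the large subunit the stalk binds the translation factors and holds copies of MRPL12, the L7/L12 protein. MRPL12 (chr17:81703367-81707517, plus strand) had the second largest difference of all 78 genes without the block. Its level was 21.9 and 25.1 CPM in the core, compared with 34.5 and 46.9 CPM in the invasion zone. The groups were well apart, with invasion zone replicate 2 the highest. Its log2 fold change was 0.79 ± 0.21 without the block (adjusted p = 0.136, edgeR) and 0.77 ± 0.11 with it (adjusted p = 0.00101). An unnamed gene on the same strand shares 69.5% of its exonic bases, so its counts are uncertain.

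The 5 genes of the stalk and its base did not share a direction. Their median log2 fold change was -0.08, with MRPL12 and MRPL11 called higher with the block and 0 called lower. The block called 19.4% of all genes tested higher, and 28.1% of those with a mean of at least 10 CPM. Whether the share in so few genes differs from these was not tested. MRPL10, which anchors MRPL12 to the ribosome, had 48.5 and 51.8 CPM in the core, compared with 47.4 and 43.4 CPM in the invasion zone. It was below the core in both invasion zone libraries, by a log2 fold change of -0.14 ± 0.10 with the block that did not pass (adjusted p = 0.331, edgeR). MRPL54 had 16.6 and 14.9 against 15.3 and 14.6 CPM (log2 fold change -0.08 ± 0.14 with the block, adjusted p = 0.699). With GC and length offsets and no block its log2 fold change was 0.13. MRPL53 had 1.79 and 0.796 against 1.09 and 0.842 CPM, from 10 to 64 counts a library. It went down in replicate 1 and slightly up in replicate 2 (log2 fold change -0.46 ± 0.42 with the block, adjusted p = 0.433), and CCDC142 shares 72.8% of its exonic bases.

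Around the exit tunnel, 4 of 8 genes were called higher with the block and 0 lower, and the median log2 fold change was 0.42. The count stands beside 19.4% of all genes tested and 28.1% of those with at least 10 CPM, and was not tested. MRPL24, a homologue of L24 near the tunnel exit (chr1:156737303-156741590, minus strand), had 67.5 and 101 CPM in the core, compared with 126 and 162 CPM in the invasion zone. Each invasion zone library was above each core library, and replicate 2 was higher in both zones. Its log2 fold change was 0.78 ± 0.24 without the block (adjusted p = 0.157, edgeR) and 0.80 ± 0.09 with it (adjusted p = 0.000245), the smallest adjusted p of the 78 genes.

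MRPL47, the homologue of L29 (chr3:179588285-179604649, minus strand), had 80.4 and 76.9 CPM in the core, compared with 123 and 125 CPM in the invasion zone. It was the most even of the larger differences, with an SD of 2.44 CPM among core and of 1.45 CPM among invasion zone libraries (n = 2 each). Its log2 fold change was 0.66 ± 0.13 without the block (adjusted p = 0.128, edgeR) and 0.65 ± 0.08 with it (adjusted p = 0.000454). MRPL45, which tethers the ribosome to the inner membrane, differed less, with 52.9 and 58.2 CPM in the core, compared with 60.6 and 61.3 CPM in the invasion zone (log2 fold change 0.14 ± 0.09 with the block, adjusted p = 0.283). MRPL44, with a fold like that of an RNase III, had 47.4 and 44.4 against 41.9 and 49.9 CPM and a log2 fold change of -0.01 ± 0.11 with the block (adjusted p = 0.936). Its invasion zone libraries lay on both sides of the core.

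The central protuberance joins the subunits at the top of the large one. With the block 3 of its 8 genes were called higher, MRPL52, MRPL18 and MRPL58, and 0 lower, with a median log2 fold change of 0.25. This share was not far from the 28.1% of all genes with at least 10 CPM that the block called higher. MRPL52, particular to mitochondria (chr14:22829879-22835037, plus strand), had 40.0 and 44.9 CPM in the core, compared with 64.0 and 68.5 CPM in the invasion zone. Its groups were wide apart, and its log2 fold change was 0.64 ± 0.15 without the block (adjusted p = 0.131, edgeR) and 0.64 ± 0.09 with it (adjusted p = 0.000915). MRPL55 had 48.5 and 44.1 against 40.5 and 44.1 CPM, about level in replicate 2 (log2 fold change -0.14 ± 0.11 with the block, adjusted p = 0.348). The sign of its change turned with GC and length offsets (0.15 without the block). MRPL38 was the lowest gene per transcript length, at 1.97 CPM per kilobase. It had 3.33 and 1.59 against 3.84 and 1.94 CPM (log2 fold change 0.23 ± 0.29 with the block, adjusted p = 0.572). An unnamed gene on the same strand shares 41.1% of the exonic bases of MRPL38, so its counts and its rank are uncertain.

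Near the peptidyl transferase centre, where the peptide bond is made, 3 of 5 genes were called higher with the block (MRPL3, MRPL4 and MRPL27) and 0 lower. Their median log2 fold change was 0.32. Of all genes tested the block called 19.4% higher, and of those with at least 10 CPM 28.1%, and the count of these few genes was not tested. The call of MRPL27 was lost with upper-quartile scaling or with at least 10 counts in every library, both with the block. MRPL4, whose promoter is shown above for its NRF1 core, had 30.7 and 42.4 CPM in the core, compared with 44.7 and 61.1 CPM in the invasion zone. Its invasion zone replicate 1 was just above core replicate 2, and its log2 fold change was 0.53 ± 0.24 without the block (adjusted p = 0.244, edgeR) and 0.53 ± 0.10 with it (adjusted p = 0.00278).

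Elsewhere in the large subunit, MRPL1 of the L1 stalk (chr4:77862830-77952785, plus strand) had 42.9 and 40.4 CPM in the core, compared with 70.1 and 58.8 CPM in the invasion zone. Its groups were far apart, and its log2 fold change was 0.63 ± 0.16 without the block (adjusted p = 0.135, edgeR) and 0.63 ± 0.10 with it (adjusted p = 0.00127). MRPL21, a homologue of L21, had 34.6 and 34.0 CPM in the core, compared with 46.4 and 55.9 CPM in the invasion zone. The core libraries were nearly equal, and its log2 fold change with the block was 0.56 ± 0.11 (adjusted p = 0.00412, edgeR). MRPL36, a very small homologue of L36, had 28.9 and 26.5 against 37.1 and 34.1 CPM and a log2 fold change of 0.36 ± 0.11 with the block (adjusted p = 0.0259). MRPS30, of the large subunit by structure, had 52.0 and 58.6 against 63.2 and 75 CPM and a log2 fold change of 0.32 ± 0.09 with the block (adjusted p = 0.0241), or 0.19 without the block when invasion zone replicate 2 was left out.

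MRPL51 and MRPL41, both particular to mitochondria, came next to MRPS34 per transcript length, at means of 162 and 155 CPM per kilobase. MRPL51 had 130 and 124 CPM in the core, compared with 168 and 159 CPM in the invasion zone, with a log2 fold change of 0.37 ± 0.08 with the block (adjusted p = 0.00525, edgeR). Of its exonic bases 27.6% lie opposite NCAPD2, and the use of strand in the counting is not stated. For MRPL41 the levels were 83.2 and 82.4 against 86.3 and 109 CPM, so that invasion zone replicate 2 stood above the other 3 libraries, and its log2 fold change was 0.22 ± 0.10 with the block (adjusted p = 0.126). It was called higher, at 0.53, when GC and length offsets were added to the block. MRPL43 had 50.6 and 40.6 against 44.3 and 44.9 CPM and a log2 fold change of -0.04 ± 0.11 with the block (adjusted p = 0.835). Both its invasion zone libraries lay between those of the core, and its sign was positive under GC and length offsets (0.10 without the block).

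**Figure D4:**
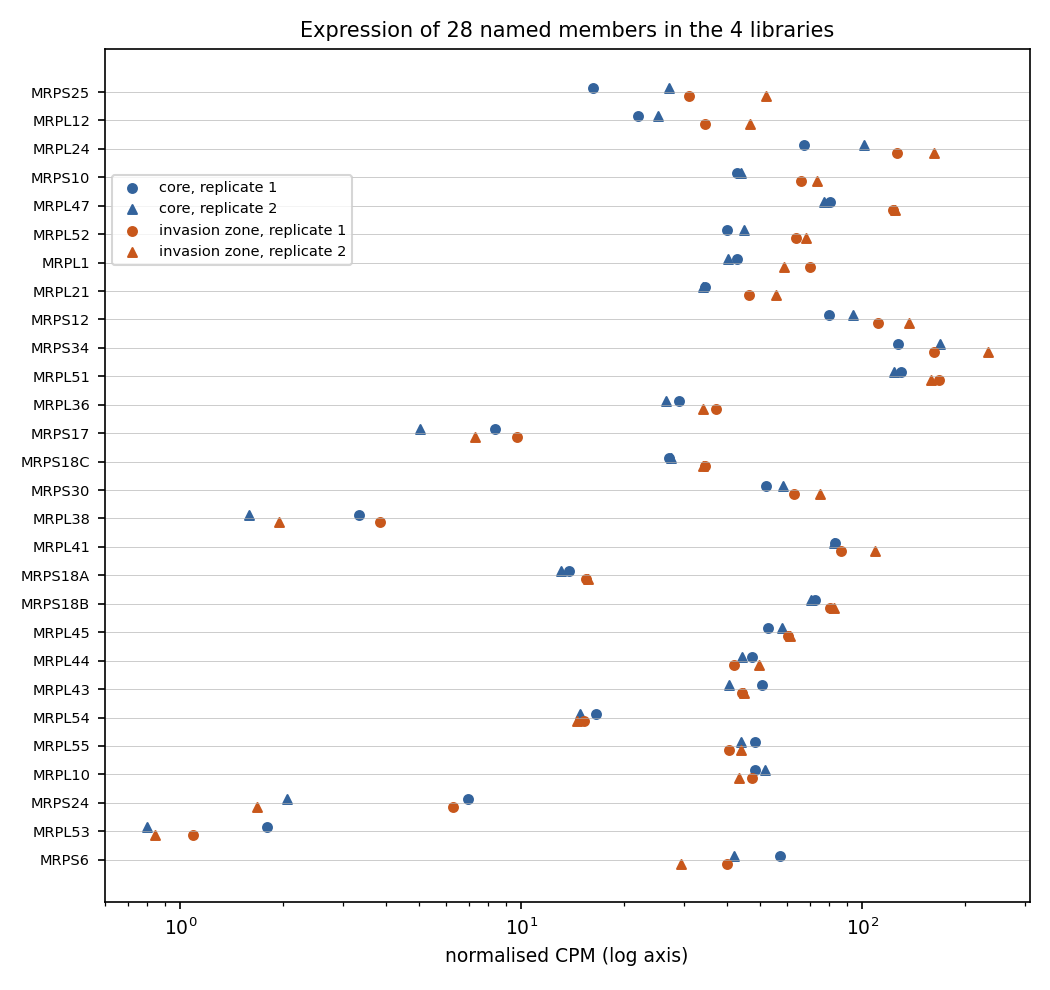
Normalised CPM on a log axis of the 28 genes chosen by size of difference, level or role, in core (blue) and invasion zone (orange), with circles for replicate 1 and triangles for replicate 2. From MRPS25 down to MRPL21 the orange marks lie right of both blue marks, while at MRPS24 and MRPL38 the replicates are further apart than the zones.

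The genes not named singly ranged in log2 fold change from 0.00 (MRPL34) to 0.57 (MRPL35) without the block. Counting was limited for few of the 78: 6 genes had under 100 counts in some library, and the smallest count was 10. At least 10% of the exonic bases were shared with another gene on the same strand for 14 genes and on the opposite strand for 17. Among the latter were MRPL53 (79.4%, the largest share), MRPS18A (50.9%), MRPS18C (40.2%), MRPL43 (38.1%), MRPL51 (27.6%) and MRPL4 (21.3%). Pseudogenes named after 34 of the genes, found by symbol, made up 74 rows of the table and held 0.0799% as many counts as the genes themselves. Counts were of uniquely mapped reads, so reads that match a gene and its pseudogene alike can be missing from both rows. Canonical transcripts of the 78 genes were shorter than those of all genes tested (median 1242 against 2825 bases) and had the same median GC content (48.1%).

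The medians of genes with and without each motif were close, and their difference was not tested. With the GABPA letters the median log2 fold change was 0.34 over 30 genes, and without them it was 0.34 over 39. With the NRF1 core it was 0.33 (15 genes) and without it 0.34 (54 genes), and with the YY1 letters 0.32 (13 genes) and without them 0.34 (56 genes). The 48 genes with any of the 3 had a median of 0.32 and the 21 with none a median of 0.38. The 4 genes with the largest differences that had a window and no motif in it were MRPS25, MRPL12, MRPL24 and MRPL1.

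Other genes of mitochondrial translation had positive medians, with shares of calls that differed between lists. With the block, over all genes tested 19.4% were called higher and 19.4% lower, and among genes with a mean of at least 10 CPM 28.1% were called higher. All 5 subunits that carry other symbols were called higher and 0 lower, and 4 were called when GC and length offsets were added to the block. Their median log2 fold change was 0.36. DAP3, a small subunit GTP-binding protein, had 161 and 194 CPM in the core, compared with 243 and 306 CPM in the invasion zone (log2 fold change 0.63 ± 0.07 with the block, adjusted p = 0.000316, edgeR). The other two of the 3 largest were AURKAIP1 (0.47 ± 0.07) and PTCD3 (0.36 ± 0.08), on the same scale.

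Of 12 translation factors 5 were called higher and 0 lower with the block (median log2 fold change 0.29). TUFM, the elongation factor that brings the aminoacyl-tRNA, had 306 and 371 CPM in the core, compared with 387 and 482 CPM in the invasion zone (0.36 ± 0.07, adjusted p = 0.00414, edgeR). The largest log2 fold changes with the block were 0.58 ± 0.11 for GUF1, 0.44 ± 0.10 for the recycling factor MRRF and 0.38 ± 0.10 for the initiation factor MTIF2. The other initiation factor, MTIF3, was not called (-0.25 ± 0.12), but was called lower with GC and length offsets added (-0.37), where TUFM was at 0.56.

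Among 25 genes of mitoribosome assembly and rRNA modification, 12 were called higher and 1 lower (median log2 fold change 0.30). The rRNA methyltransferase MRM1 (0.92 ± 0.19) and the assembly factor RBFA (0.84 ± 0.15) had the largest log2 fold changes with the block, followed by MTERF3 (0.46 ± 0.10). MRM1 had 3.63 and 8.62 CPM in the core, compared with 7.39 and 15.2 CPM in the invasion zone, so its groups overlapped. Without the block it was at 0.89 ± 0.54 (adjusted p = 0.364, edgeR). NOA1, a GTPase of small subunit assembly, was the gene called lower (-0.36 ± 0.11, adjusted p = 0.0261, edgeR), with 36.3 and 38.9 CPM in the core, compared with 28.8 and 29.9 CPM in the invasion zone. Its call was lost with GC and length offsets added (-0.20). Of 17 mitochondrial aminoacyl-tRNA synthetases 6 were called higher and 1 lower (median 0.24), a share not far from the 28.1% of genes with at least 10 CPM, with MARS2 at 0.84 ± 0.12 and NARS2 at 0.73 ± 0.11, and PARS2 lower at -0.66 ± 0.16. With GC and length offsets added to the block, 17 of the 25 assembly genes were called higher and 0 lower. For the synthetases these counts were 8 and 1, and more of all genes were also called higher.

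The import machinery takes these proteins into the organelle, and was listed together with matrix chaperones. This list had a median log2 fold change of 0.58 over 13 genes, and 9 were called higher and 0 lower with the block. TOMM40, the pore of the outer membrane, had 99.8 and 160 CPM in the core, compared with 221 and 321 CPM in the invasion zone (1.08 ± 0.08 with the block, adjusted p = 6.04e-05, edgeR). HSPD1, the matrix chaperonin, was at 0.80 ± 0.08 and TIMM50 at 0.75 ± 0.08.

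Of 10 tested genes of mitochondrial biogenesis and transcription 6 were called higher and 1 lower (median log2 fold change 0.37). MYC, a transcription factor that drives growth genes, had 82.2 and 105 CPM in the core, compared with 158 and 182 CPM in the invasion zone (0.87 ± 0.08 with the block, adjusted p = 0.000132, edgeR). PPARGC1B was at 0.85 ± 0.23 and PPRC1, of the same coactivator family, at 0.69 ± 0.09. TFAM, which packs mitochondrial DNA and starts its transcription, had 137 and 125 against 189 and 164 CPM (0.42 ± 0.08, adjusted p = 0.00266). GABPA itself was called lower (-0.32 ± 0.10, adjusted p = 0.0343, and 0.0515 with GC and length offsets added), and NRF1 was not called (0.18 ± 0.17).

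RNA from mitochondrial DNA gave values of both signs. The 13 mitochondrially encoded mRNAs had a median log2 fold change of -0.17, and 1 was called higher and 4 lower with the block. They summed to 11310 and 7385 CPM in the core, compared with 9310 and 7111 CPM in the invasion zone, with replicates further apart than zones. MT-ND4 (-0.40 ± 0.07), MT-CYB (-0.32 ± 0.07), MT-ND6 (-0.27 ± 0.08) and MT-ND5 (-0.25 ± 0.07) were called lower and MT-CO1 (0.26 ± 0.07) higher. With GC and length offsets added to the block, 1 of the 13 mRNAs was called higher and 6 lower. The RNAs of the ribosome itself went opposite ways, the small subunit's MT-RNR1 from 371 and 287 CPM to 542 and 365 CPM (0.45 ± 0.08, adjusted p = 0.00229, edgeR) and the large subunit's MT-RNR2 from 5750 and 3580 CPM to 4450 and 3030 CPM (-0.30 ± 0.07, adjusted p = 0.0117). Ribosomal RNA reads had been removed before counting, and whether mitochondrial rRNA was among the removed sequences is not stated in the sources used here.

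The proteins of the cytosolic ribosome, which translates nuclear mRNAs, had a lower median. Over 82 tested genes it was 0.14, and 31 were called higher and 2 lower with the block, RPS27 (-1.21 ± 0.13) and RPL28 (-0.39 ± 0.07). The block called 19.4% of all genes tested higher and 19.4% lower, and 28.1% higher of those with a mean of at least 10 CPM. With GC and length offsets added to the block, 26 of the 82 were called higher and 2 lower. Counts were of uniquely mapped reads, and a tested gene of this list had as few as 10 counts in a library. The sum of the list was 18090 and 16470 CPM in the core, compared with 18860 and 18870 CPM in the invasion zone. The ratio was 1.04 in replicate 1 and 1.15 in replicate 2, beside the 1.27 and 1.31 of the mitochondrial genes. The difference between both kinds of ribosome was not tested.

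**Figure D5:**
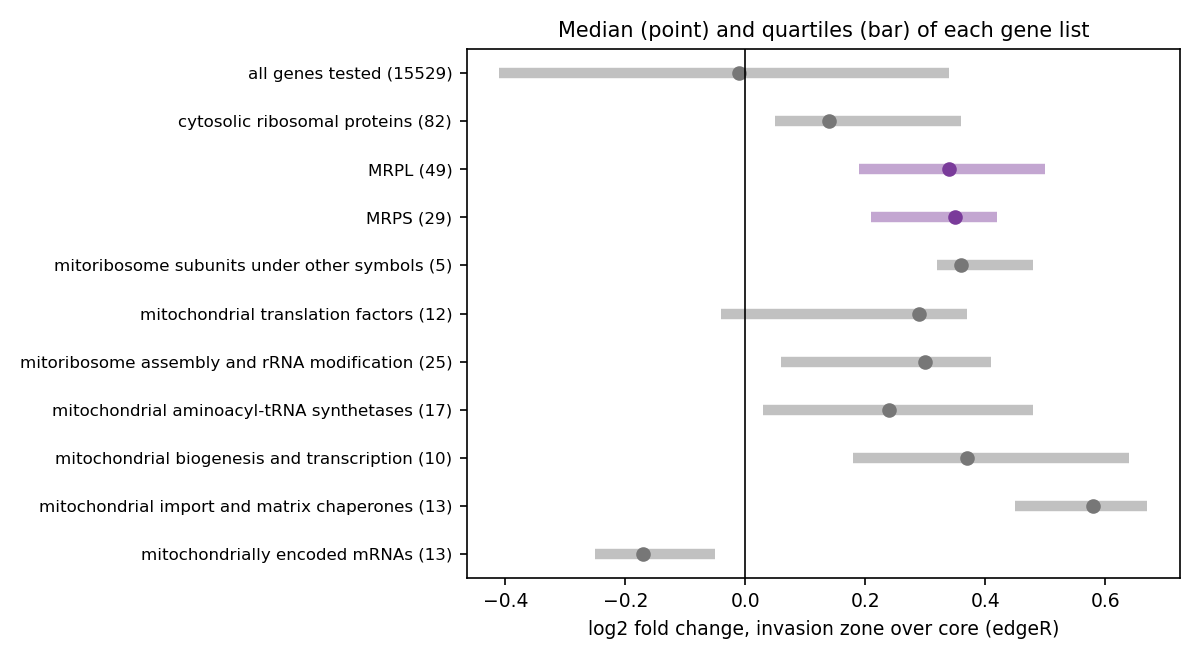
Median (point) and quartiles (bar) of the log2 fold change, invasion zone over core, fitted without the replicate block, for MRPL and MRPS genes (purple) and for other lists and all genes tested (grey), with the number of genes tested in brackets. MRPL (0.34) and MRPS (0.35) lie right of all genes (-0.01) and of cytosolic ribosomal proteins (0.14). Genes of import and matrix chaperones lie furthest right (0.58), and mitochondrially encoded mRNAs lie left of zero (-0.17).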

How the data were processed

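Bulk RNA-seq of 4 MV3 libraries, 2 per zone, was used. Per the study's methods and the submitters' processing notes, Bowtie was used by the authors to remove reads of ribosomal RNA before they aligned the rest to hg38 with STAR and deposited raw counts of uniquely mapped reads per gene from HTSeq-count. They compared zones with DESeq2. Versions, the annotation release and the use of strand are not given in the sources read here.

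Of 56306 gene rows, 2 repeated rows without counts were left out, and 0 columns of per-sample values were left unused. In R 4.3.3 with edgeR 4.0.16, genes reaching 10 counts at the median library size and 15 in total were kept, scaled by TMM and tested by the quasi-likelihood test, with zone as the single term and Benjamini-Hochberg adjustment over 15529 genes at 0.05. A replicate block, DESeq2 1.42.0, limma 3.58.1, other scalings, filters, offsets for library trends on GC content and transcript length, and left-out libraries were alternatives. The standard error of a log2 fold change came from its F statistic. The deviations of libraries from their zone mean were correlated between libraries of the same number (0.566 across genes, 2 pairs), but no source says what a number stands for. Libraries of 1 zone differed by more than counting noise (chi-square per degree of freedom 34.5 and 32.5). CPM were computed from the deposited counts.

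The member genes and gene lists were chosen with earlier results of these data known. Genes named singly were the 8 with the largest positive and the 8 with the largest negative fold change, the 3 highest and 3 lowest per canonical transcript length, 9 chosen by role, and any called against the direction of the median. From other lists the 3 called genes with the largest change were named, with MYC, TFAM, TUFM and both mitochondrial rRNAs, except 1 gene that is not reported here. Named outside this rule, after their values were seen, were MRPL4, MRPL3, MRPL11, MRPL18, MRPL27, MRPL58, MRPL34, MRPL35, the genes that lost or gained a call with offsets, MTIF3, NRF1, the genes of a list called against its median, MT-ND5 and MT-CO1. SLC5A3, NR2C2 and other overlapping genes are named without values. The list of cytosolic ribosomal proteins was added after the data were seen and lies outside this rule, with the genes called against its median named alone. Gene positions, lengths and overlaps came from GENCODE release 44 (98.1% of identifiers), promoter windows from RefSeq starts, and figures from matplotlib 3.10.9. The procedure was tested on simulated data.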

Additional observations from a re-analysis of the deposited data

How the results depend on the processing

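The medians of the 78, the MRPL and the MRPS genes stayed positive in every alternative run, while the counts of calls depended on the test. Without a block, unadjusted p called 25 of the 78 genes higher (1841 higher and 1928 lower of all genes), no count filter called 8 (1148 and 1425) and DESeq2 7 (811 and 876), and 0 were called with RLE or upper-quartile scaling, with limma voom, with GC and length offsets, with a 2-fold minimum or with at least 10 counts in every library. With the replicate block 44 were called higher and 1 lower (3010 and 3009 of all genes). Chosen after seeing the data and all with the block, RLE scaling gave 46 and 1 (3157 and 3024), a minimum of 10 counts in every library 43 and 1 (2889 and 2905), upper-quartile scaling 43 and 1 (2930 and 3459), no count filter 43 and 1 (3087 and 3256), limma voom 46 and 1 (3234 and 3228), and a 2-fold minimum 0 and 0 (530 and 1097). GC and length offsets with the block gave 44 and 1 (3821 and 2508), with 39 of the 44 shared. Leaving out 1 library without the block called 0 to 4 of the 78 genes higher and 0 lower, with 2 when core replicate 2 was left out and 4 when invasion zone replicate 1 was, and 13 to 898 of all genes higher and 125 to 1331 lower, where the lone library of a zone is assumed to vary like the other zone. Without core replicate 1 all genes gave 13 higher and 125 lower, and without invasion zone replicate 2 they gave 308 and 406.

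The median log2 fold change of the 78 genes was 0.29 to 0.38 with 1 library left out, 0.31 with upper-quartile scaling (with or without the block), 0.32 with at least 10 counts in every library (with or without the block) and 0.37 with GC and length offsets. The log2 ratio of summed CPM, which is not a median over genes, was 0.39 in replicate 2. From CPM on total counts the median was 0.36 in replicate 1 and 0.37 in replicate 2. For MRPL it was 0.29 to 0.38 with 1 library left out, 0.35 with RLE scaling or DESeq2, 0.30 with upper-quartile scaling (0.31 with the block), 0.33 without a count filter, 0.31 with at least 10 counts in every library, and 0.38 with GC and length offsets (0.37 with the block). For MRPS it was 0.28 to 0.38 with 1 library left out, 0.31 with GC and length offsets (with or without the block) and 0.31 with upper-quartile scaling and the block. The difference of medians, MRPL minus MRPS, was -0.016, and went to 0.068 with GC and length offsets (0.069 with the block) and from -0.011 to 0.030 with 1 library left out, so its sign was not stable, and the cause was not tested. Of the 28 genes plotted singly, those that turned their sign were not called in the settings where they did so, and the cause was not tested. With GC and length offsets the log2 fold change became 0.10 for MRPL43, 0.13 for MRPL54 and 0.15 for MRPL55 (0.08, 0.11 and 0.12 with the block). For MRPL44, at -0.00, it was 0.01 with RLE scaling or DESeq2, and -0.13 to 0.12 with 1 library left out. With 1 library left out it was also -0.38 to 0.90 for MRPL38, -0.18 to 0.15 for MRPL43, -0.85 to 0.31 for MRPL53, -0.14 to 0.02 for MRPL54 and -1.46 to 1.01 for MRPS24, and the sign of each depended on which library that was. Depth limited 6 genes with under 100 counts in a library. Whether same-numbered libraries are paired limits all blocked calls.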
